A study of Mus musculus with 21 samples.

Results

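Connexins are the membrane proteins that build gap junctions. Subunits assemble into a hemichannel in one cell, and hemichannels of adjoining cells dock to form a pore that passes ions and small metabolites, cAMP among them. Keratinocytes make several connexins at once, in patterns that change between the basal layer, the upper layers, hair follicles and wound edges. The 4 genes described here are Gja1 (Cx43), the alpha connexin found widely in skin, Gjb2 (Cx26), a beta connexin known for hearing loss with skin disease when mutated and for its rise in wounded epidermis, Gjb6 (Cx30), whose mutations cause hidrotic ectodermal dysplasia, and Gjb5, a beta connexin of stratified epithelia. They were chosen by name, with earlier results of these data known, and all 4 were found among the 23713 genes of the deposited table.

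RNA was measured by bulk sequencing of keratinocytes from mouse tail skin, in 3 mouse models of basal cell carcinoma (BCC), a skin tumour driven by Hedgehog signalling. SmoM2 is an active form of Smoothened, the switch of that pathway, and was sampled at day 29 after induction. Gnas-eKO, named for loss of Gnas, the stimulatory G protein that raises cAMP, was sampled at day 42. PKI, named for an inhibitor of protein kinase A, the cAMP-dependent kinase, was sampled at day 57. Each model had 4 libraries from tumour mice (BCC) and 3 from mice without tumours (Con), 21 in all, and each model was its own batch (A, B or C), so model, batch and day cannot be told apart. The labels do not give the strain, age, sex, the promoter of the transgenes, or what the Con mice carried. In the headers, each library has its own animal name, and the names of SmoM2 BCC mice have another prefix (BF) than those of SmoM2 Con mice (TJ), so tumour and origin of the mice cannot be told apart there.

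Library totals were 16645858 to 22251132 counts. Gnas was at 51.1 to 115 CPM (counts scaled to the library total after TMM adjustment) in Gnas-eKO BCC and 172 to 178 CPM in Gnas-eKO Con, a log2 fold change of −1.11 that missed the threshold (edgeR adjusted p 0.0647). Ptch1, the Hedgehog target, was above Con in every BCC library, at 209 to 1060 CPM against 30 to 42.9 CPM. One library stood apart: Gnas-eKO BCC replicate 2 lay at −20.4 on the first principal component, between the Con libraries (−57.2 to −40.4) and the other BCC libraries (32.4 to 59.4), and its Gli1, another Hedgehog target, was at 9.64 CPM against 153 to 281 CPM in the other Gnas-eKO BCC libraries. Markers of basal keratinocytes (8 genes) summed to between 17500 and 42400 CPM in every library, those of leukocytes (7 genes) to at most 68.8 CPM, those of endothelium (6 genes) to at most 6.77 CPM and those of muscle (3 genes in the table) to at most 1.15 CPM. Fibroblast markers (7 genes) summed to 15.9 to 43.6 CPM in the Con groups, 387 to 525 CPM in SmoM2 BCC, 94.6 to 579 CPM in Gnas-eKO BCC and 84.6 to 145 CPM in PKI BCC. A single gene, Dcn, made up most of the sum in SmoM2 BCC, with a mean of 439 CPM. Col1a1 averaged 1.56 CPM in SmoM2 Con and 1.97 CPM in SmoM2 BCC, and Col3a1 2.7 and 2.53 CPM. Col1a2 averaged 1.96 and 14.8 CPM there, and Lum 0.2 and 0.886 CPM. In Gnas-eKO, Col1a1 averaged 1.79 CPM in Con and 14 CPM in BCC, and Col3a1 2.16 and 12.9 CPM. In PKI these means were 2.51 and 10.5 CPM for Col1a1, and 2.44 and 7.52 CPM for Col3a1.

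Gja1 lies on chromosome 10 of GRCm38 (56377330 to 56402513, plus strand, ENSMUSG00000050953.10). Gjb2 (57098600 to 57104702, minus strand, ENSMUSG00000046352.7) and Gjb6 (57123303 to 57133611, minus strand, ENSMUSG00000040055.9) are both on chromosome 14, 18600 bases apart with 1 annotated gene between them, and Gja3 lies 40499 bases beyond Gjb2. Gjb5 is on chromosome 4 (127354809 to 127358181, minus strand, ENSMUSG00000042357.2). All 4 are protein-coding, and none overlaps another gene of the GENCODE M21 annotation. The promoters of Gja1 and Gjb2, the 2 members that rose in PKI, and of Gjb6, near Gjb2 on the chromosome, which did not, are shown as the 250 bases before the RefSeq start (GRCm38.p6), in the direction of the gene, with motif matches in capitals.
Gja1, chr10:56377050-56377299, plus strand: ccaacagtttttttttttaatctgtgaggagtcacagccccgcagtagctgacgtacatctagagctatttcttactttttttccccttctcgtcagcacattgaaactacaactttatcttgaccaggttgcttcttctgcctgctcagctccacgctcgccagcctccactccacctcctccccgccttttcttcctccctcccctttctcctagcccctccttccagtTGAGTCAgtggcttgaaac
Gjb2, chr14:57104703-57104952, minus strand: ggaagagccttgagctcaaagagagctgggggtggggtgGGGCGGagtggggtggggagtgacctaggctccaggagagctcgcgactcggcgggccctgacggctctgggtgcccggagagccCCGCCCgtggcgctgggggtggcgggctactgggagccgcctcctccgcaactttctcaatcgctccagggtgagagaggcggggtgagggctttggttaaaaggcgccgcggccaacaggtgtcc
Gjb6, chr14:57133612-57133861, minus strand: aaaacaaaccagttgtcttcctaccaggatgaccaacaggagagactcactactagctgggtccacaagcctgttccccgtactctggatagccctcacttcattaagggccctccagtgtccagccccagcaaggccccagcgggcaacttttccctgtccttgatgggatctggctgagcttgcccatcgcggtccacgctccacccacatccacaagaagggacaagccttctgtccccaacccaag

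Searched on both strands were the AP-1 site TGANTCA, the cAMP response element TGACGTCA, the GLI site GACCACCCA, the GC box GGGCGG and the TATA box TATAAA, none of which overlapped another in these windows. The Gja1 promoter held an AP-1 match (TGAGTCA) from −19 to −13 relative to the start, a motif found in 6.75% of 32851 promoter windows of the same length. The Gjb2 promoter held GC boxes at −211 and −126, a motif in 32.7% of windows, and 69.2% of its bases were G or C, against a median of 52.4% over all windows. The Gjb6 promoter held none of these letter strings, and 56.8% of its bases were G or C. The Gjb5 window, not shown, held a single TATA box match far from the start, at −243, and TATA boxes were in 12.4% of windows. The cAMP response element (1.55% of windows) and the GLI site (0.225%) were in none of the 4 windows.

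The connexins diverged between models. In PKI BCC, Gjb2 rose 2.73-fold and Gja1 1.61-fold, Gjb5 fell, and Gjb6 did not pass the test. In SmoM2 BCC, Gja1, Gjb5 and Gjb6 fell, to 0.738, 0.551 and 0.482 of Con, and none of the 4 rose. In Gnas-eKO BCC all 4 estimates were below Con and none passed. The difference between models was itself past the threshold for Gja1 and Gjb2, for PKI against either of the other models. In bulk RNA a lower or higher level cannot be told apart from fewer or more cells of the type that makes it.

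**Figure D1:**
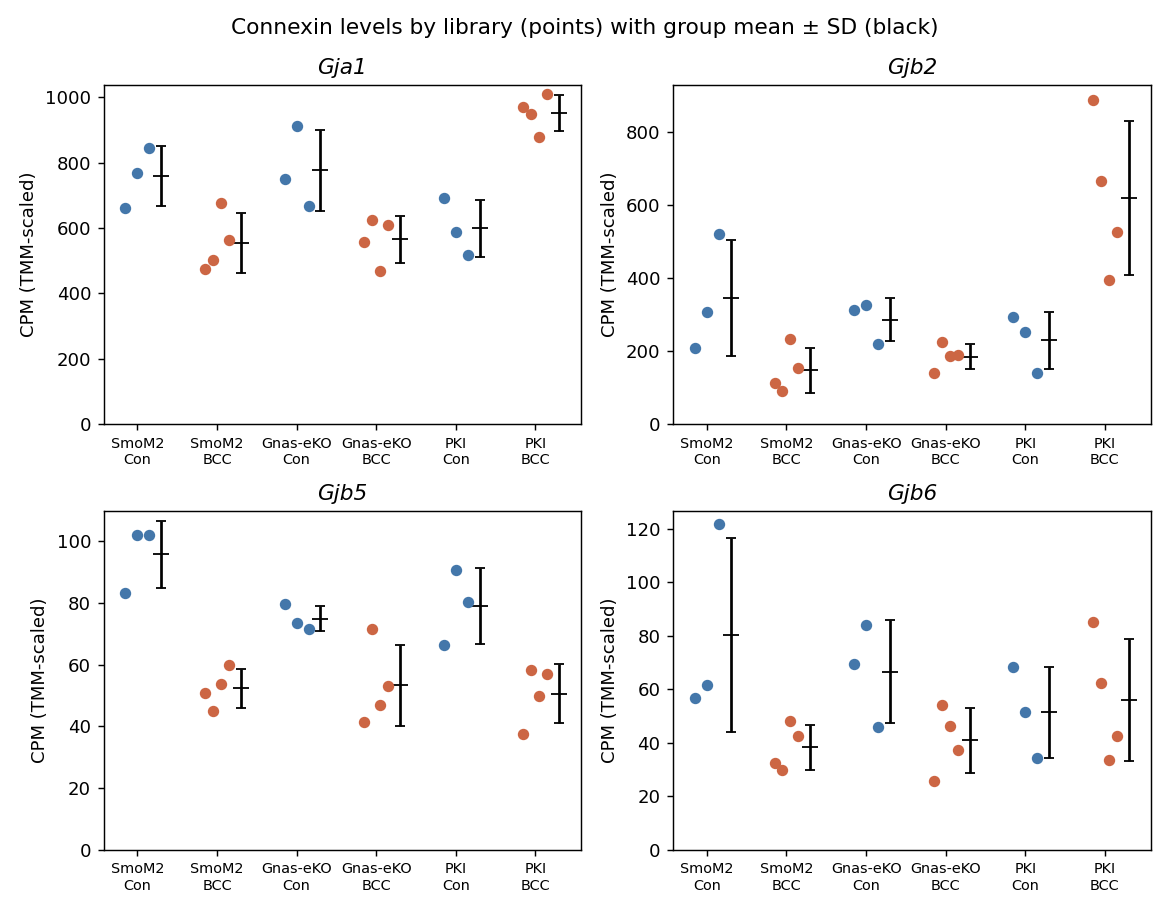
CPM of Gja1, Gjb2, Gjb5 and Gjb6 (y axis, linear from 0) in the 6 groups (x axis). Points are libraries, blue for Con and orange for BCC, and the black bar is the group mean ± SD. All 4 PKI BCC libraries lie above PKI Con for Gja1 and Gjb2, while all 4 lie below PKI Con for Gjb5.

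Gja1, the most abundant of the 4 by CPM, was at 662, 769 and 843 CPM in SmoM2 Con and at 473, 502, 677 and 563 CPM in SmoM2 BCC. BCC replicate 3 reached into the Con range and the other 3 lay below it. The Con mean, 758 ± 90.8 CPM (SD, n = 3), dropped in BCC to 554 ± 90 CPM (SD, n = 4), or −0.44 on the log2 scale (SE 0.13, edgeR adjusted p 0.0315). That call did not hold without Con replicate 2 (−0.43, edgeR adjusted p 0.0939), Con replicate 3 (−0.36, 0.111), BCC replicate 1 (−0.37, 0.0711), BCC replicate 2 (−0.39, 0.0793) or BCC replicate 4 (−0.44, 0.0644). In Gnas-eKO the values were 750, 912 and 667 CPM in Con and 557, 623, 468 and 610 CPM in BCC. The groups did not overlap, but the log2 fold change of −0.45 (SE 0.17) missed the threshold (edgeR adjusted p 0.195). It passed in the joint fit of all 21 libraries (−0.46, edgeR adjusted p 0.0349). In PKI, Con libraries held 691, 588 and 516 CPM and BCC libraries 971, 947, 879 and 1010 CPM. Every BCC library was higher than every Con library, and the BCC libraries varied little, with a coefficient of variation of 5.86%. From a Con mean of 598 ± 87.9 CPM (SD, n = 3), the level rose in BCC to 953 ± 55.8 CPM (SD, n = 4), or 0.68 on the log2 scale (SE 0.10, edgeR adjusted p 0.00132), and it passed in every alternative.

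Gjb2 varied more between mice. SmoM2 Con held 207, 308 and 520 CPM and SmoM2 BCC 112, 90.8, 232 and 153 CPM, so that BCC replicate 3 lay above the lowest Con library. The log2 fold change was −1.22, but with an SE of 0.44 it did not pass (edgeR adjusted p 0.0934). It passed with the DESeq2 Wald test (adjusted p 0.0372), in the joint fit (edgeR adjusted p 0.0162), with limma on the authors' normalized values (adjusted p 0.0301) and without BCC replicate 3 (−1.52, edgeR adjusted p 0.0485), and without Con replicate 3 the value was −0.80 (edgeR adjusted p 0.266). In Gnas-eKO, Con was at 311, 327 and 218 CPM and BCC at 140, 224, 186 and 189 CPM. Only BCC replicate 2, the library that stood apart, reached the Con range. The estimate on the log2 scale was −0.62 (SE 0.20, edgeR adjusted p 0.137), −0.72 without that library (edgeR adjusted p 0.0574), and past the threshold with the DESeq2 Wald test (adjusted p 0.0421). In PKI, Con libraries held 293, 253 and 140 CPM and BCC libraries 888, 664, 395 and 525 CPM. All 4 BCC libraries were above Con, over a wide range. From a Con mean of 229 ± 79 CPM (SD, n = 3), the level rose in BCC to 618 ± 211 CPM (SD, n = 4), or 1.45 on the log2 scale (SE 0.35, edgeR adjusted p 0.0192), which just missed the threshold without BCC replicate 2 (1.40, edgeR adjusted p 0.0529).

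Gjb6, which lies near Gjb2, did not pass the test in PKI. Its Con libraries there held 68.5, 51.4 and 34.3 CPM and its BCC libraries 85.2, 62.2, 33.7 and 42.6 CPM, and the groups overlapped fully. The estimate on the log2 scale was 0.13 (SE 0.37, edgeR adjusted p 0.805), and it turned to −0.09 without Con replicate 3 and to −0.16 without BCC replicate 1. In SmoM2, Con held 56.9, 61.7 and 122 CPM and BCC 32.6, 30, 48.2 and 42.4 CPM. All 4 BCC libraries were below Con, and Con replicate 3 was the highest, as it was for Gjb2. The estimate on the log2 scale was −1.05 (SE 0.31, edgeR adjusted p 0.0456). Without Con replicate 3 it shrank to −0.62 (edgeR adjusted p 0.0489), and the call was lost without Con replicate 2 (−1.21, edgeR adjusted p 0.0516), BCC replicate 1 (−0.98, 0.0964), BCC replicate 2 (−0.95, 0.103), BCC replicate 3 (−1.18, 0.0531) or BCC replicate 4 (−1.10, 0.0796), and with no filter on low counts (−1.05, 0.0942). In Gnas-eKO the Con libraries held 69.4, 84.2 and 46 CPM and the BCC libraries 25.6, 54.2, 46.4 and 37.4 CPM. They overlapped, and the log2 fold change, −0.69, did not pass (SE 0.27, edgeR adjusted p 0.213).

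Gjb5 fell in both SmoM2 and PKI. In SmoM2, Con held 83.4, 102 and 102 CPM and BCC 50.7, 44.9, 53.7 and 60 CPM, with no overlap. From a Con mean of 96 ± 10.9 CPM (SD, n = 3), the level fell in BCC to 52.3 ± 6.26 CPM (SD, n = 4), or −0.86 on the log2 scale (SE 0.11, edgeR adjusted p 0.000348) that passed in every alternative. In PKI, Con held 66.3, 90.8 and 80.4 CPM and BCC 37.5, 58.2, 50 and 56.9 CPM, again with no overlap. The estimate on the log2 scale was −0.63 (SE 0.17, edgeR adjusted p 0.0177), and it no longer passed without Con replicate 2 (−0.52, edgeR adjusted p 0.0732) or Con replicate 3 (−0.62, 0.058). In Gnas-eKO, Con held 79.6, 73.7 and 71.6 CPM and BCC 41.5, 71.6, 47 and 53.1 CPM. BCC replicate 2 was level with the lowest Con library and the other 3 were below. The estimate on the log2 scale was −0.48 (SE 0.18, edgeR adjusted p 0.188), and without that library it was −0.65 and passed (edgeR adjusted p 0.0171).

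**Figure D2:**
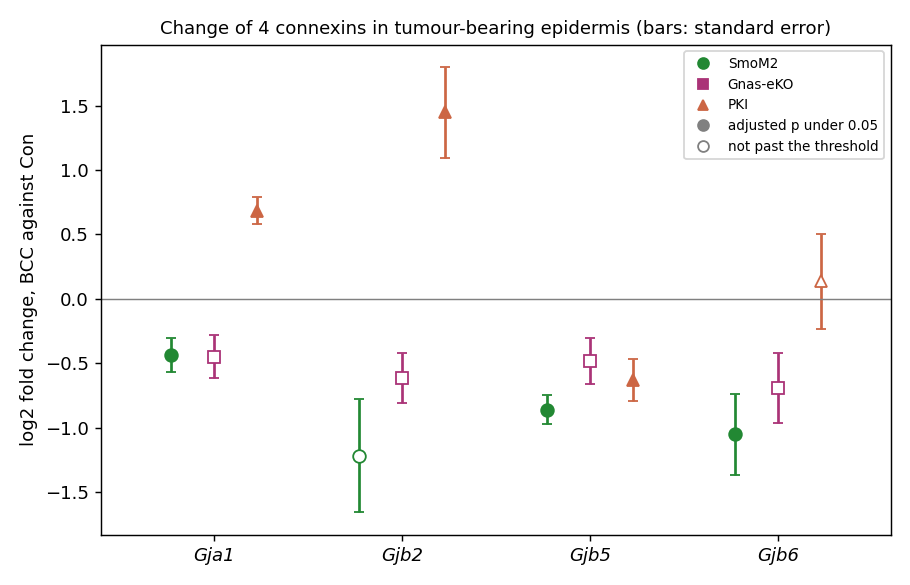
Log2 fold change of BCC against Con (y axis) for the 4 connexins (x axis) in SmoM2, Gnas-eKO and PKI, from edgeR, with bars of 1 standard error, filled symbols for an adjusted p under 0.05 and open symbols otherwise. Gja1 and Gjb2 are above 0 in PKI and below 0 in the other models, and Gjb5 is below 0 in each.

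Read against all genes, these counts were as follows. The members were chosen with earlier results of these data known, and some varied together between mice, so this comparison is a description. In SmoM2, 3 of the 4 were called lower, where 13.5% of the 16370 genes tested were. In Gnas-eKO none was called, with 267 genes (1.63%) called over the table, while at an unadjusted p under 0.05 all 4 passed as lower, as did 1204 genes (7.34%) of 3212 that passed in either direction. That count of 267 was 1910 without BCC replicate 2, 0 without Con replicate 1 or Con replicate 2, 4 without Con replicate 3, 38 without BCC replicate 1 and 59 without BCC replicate 4. In PKI, 2 were called higher (18.7% of genes were) and 1 lower (15.8%). The share of all genes whose BCC and Con libraries did not overlap is not given here. The median log2 fold change of the 4 was −0.96 (SmoM2), −0.55 (Gnas-eKO) and 0.41 (PKI), where the median of all genes lay between −0.0012 and 0.020.

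The difference of BCC effects was tested on the 14 libraries of each pair of models. For Gja1 it was 1.12 on the log2 scale for PKI minus SmoM2 (SE 0.18, edgeR adjusted p 0.000538) and 1.14 for PKI minus Gnas-eKO (SE 0.20, edgeR adjusted p 0.00546). For Gjb2 it was 2.67 (SE 0.60, edgeR adjusted p 0.00898) and 2.07 (SE 0.41, edgeR adjusted p 0.00926). These 4 differences passed in all alternatives, those that left out 1 library included. Over the table, 12.6% of genes had a called higher effect in PKI than in SmoM2, of 24.9% called in either direction, and for PKI against Gnas-eKO 4.49% of 9.06%. For Gjb6 neither difference passed, at 1.19 (SE 0.52, edgeR adjusted p 0.121) and 0.83 (SE 0.49, edgeR adjusted p 0.306). For Gjb5 they were 0.23 (SE 0.21, edgeR adjusted p 0.463) and −0.15 (SE 0.26, edgeR adjusted p 0.768). None of the 4 passed for Gnas-eKO minus SmoM2 (edgeR adjusted p 0.652 to 0.996), where 0.175% of genes did, and the values were −0.01 for Gja1, 0.60 for Gjb2, 0.38 for Gjb5 and 0.36 for Gjb6.

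Gjb2 and Gjb6 kept a narrow ratio in 5 of the 6 groups and departed from it in the sixth. Per library, Gjb2 counts over Gjb6 counts in SmoM2 were 3.64 to 4.99 for Con and 3.03 to 4.8 for BCC. The Gnas-eKO libraries had ratios of 3.89 to 4.73 (Con) and 4.01 to 5.49 (BCC), and PKI Con of 4.09 to 4.91. In PKI BCC the ratio was 10.4 to 12.3. The mean was 4.43 ± 0.43 in PKI Con (SD, n = 3) and 11.3 ± 0.893 in PKI BCC (SD, n = 4). A ratio of 2 genes in a library does not depend on how libraries are scaled. The ratio was chosen after the values were seen and is given as a description, with no test.

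**Figure D3:**
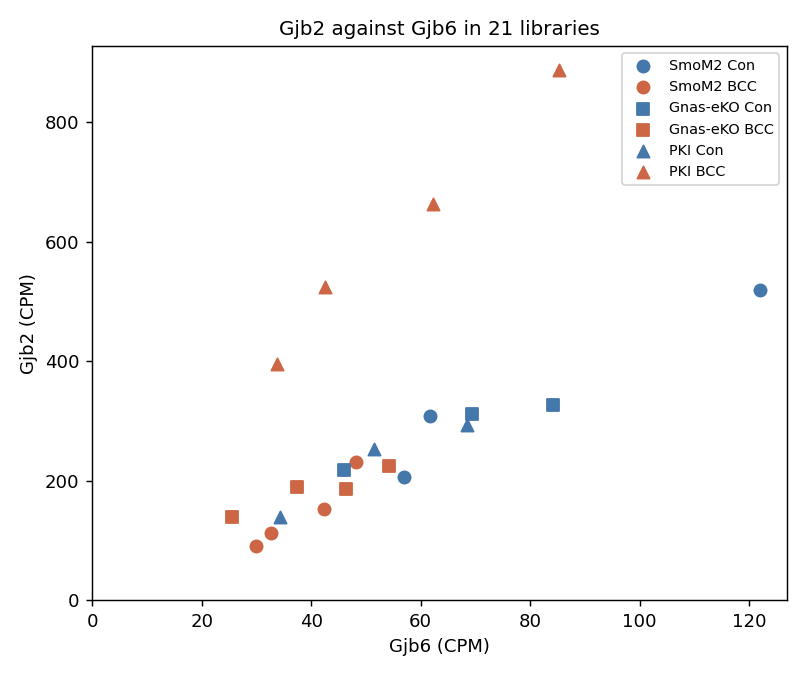
Gjb2 (y axis) against Gjb6 (x axis), both in CPM from 0, in the 21 libraries, by model (symbol) and by Con or BCC (blue or orange). The 4 PKI BCC libraries lie on a steeper line, with 10.4 to 12.3 times as much Gjb2 as Gjb6, than the other 17 libraries.

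Within groups, Gja1, Gjb2 and Gjb6 varied together from mouse to mouse. Over the 21 libraries, deviations of log2 CPM from the group mean correlated for Gjb2 with Gjb6 at a Pearson's r of 0.918 and a Spearman's rho of 0.925. The same coefficients were 0.747 and 0.755 between Gja1 and Gjb2, and 0.606 and 0.626 between Gja1 and Gjb6. Without the 2 libraries farthest from the median of the first gene, r was 0.93, 0.769 and 0.702. Gjb5 stood aside, with r of 0.249, 0.198 and 0.138 with Gja1, Gjb2 and Gjb6. These 6 correlations are descriptions, since the libraries share batches and scaling.

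By group mean, Gja1 ran from 953 CPM in PKI BCC through 776 in Gnas-eKO Con, 758 in SmoM2 Con, 598 in PKI Con and 565 in Gnas-eKO BCC to 554 in SmoM2 BCC. Gjb2 followed a like order, from 618 CPM in PKI BCC through 345 in SmoM2 Con, 285 in Gnas-eKO Con, 229 in PKI Con and 185 in Gnas-eKO BCC to 147 in SmoM2 BCC. Gjb6 was highest in SmoM2 Con (80.3 CPM) and lowest in SmoM2 BCC (38.3 CPM), with PKI BCC in the third place (55.9 CPM). Gjb5 separated Con from BCC in every model by group mean: 96, 79.2 and 75 CPM in the Con groups of SmoM2, PKI and Gnas-eKO, and 53.3, 52.3 and 50.6 CPM in BCC of Gnas-eKO, SmoM2 and PKI. For each of the 4 genes the ranges of every pair of neighbouring groups in its order overlapped or touched. The difference in means was below the sum of both SDs for every such pair except 1: Gjb5 in Gnas-eKO Con and Gnas-eKO BCC differed by 1.26 times that sum, and their ranges met at 71.6 CPM, the value of BCC replicate 2.

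Levels can be compared between genes only per length, here CPM per kilobase of the principal transcript. In SmoM2 Con, Gja1 was at 238 ± 28.5, Gjb2 at 143 ± 66.2, Gjb5 at 55.8 ± 6.32 and Gjb6 at 38.2 ± 17.3 CPM per kilobase (SD, n = 3). In PKI BCC they were at 299 ± 17.5, 257 ± 87.7, 29.4 ± 5.52 and 26.6 ± 10.9 CPM per kilobase (SD, n = 4). The mean ratio of Gja1 to Gjb2 per kilobase was 1.84 to 2.11 in the Con groups, 3.09 in SmoM2 BCC, 2.36 in Gnas-eKO BCC and 1.26 in PKI BCC, where replicate 1 had more Gjb2 (369) than Gja1 (305). The choice of length sets this order: the exons of all Gja1 transcripts together span 10.257 kilobases against 3.182 for the principal one, and with that length the mean ratios of the groups were 0.392 to 0.96, below 1 in each, though not in every SmoM2 BCC library. The fold changes above do not use length.

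Of the 20 connexin genes listed, 14 were in the table. Besides the 4, these were 10, of which 6, 5 and 4 passed the filter on low counts in SmoM2, Gnas-eKO and PKI. Of those tested, Gja3 alone was called, lower in SmoM2 (from 10.3 ± 4.6 to 3.02 ± 1.15 CPM, log2 fold change −1.75, SE 0.38, edgeR adjusted p 0.00966), against 29.7% of genes called there in either direction and 34.5% in PKI. Gja3 encodes a connexin best known from the eye lens. Gja4, a connexin of vessel walls, was at 0.516 to 5.45 CPM, Gjc1 at 0.164 to 2.96 CPM and Gjd3 at 0.164 to 1.14 CPM, and none of these passed.

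**Figure D4:**
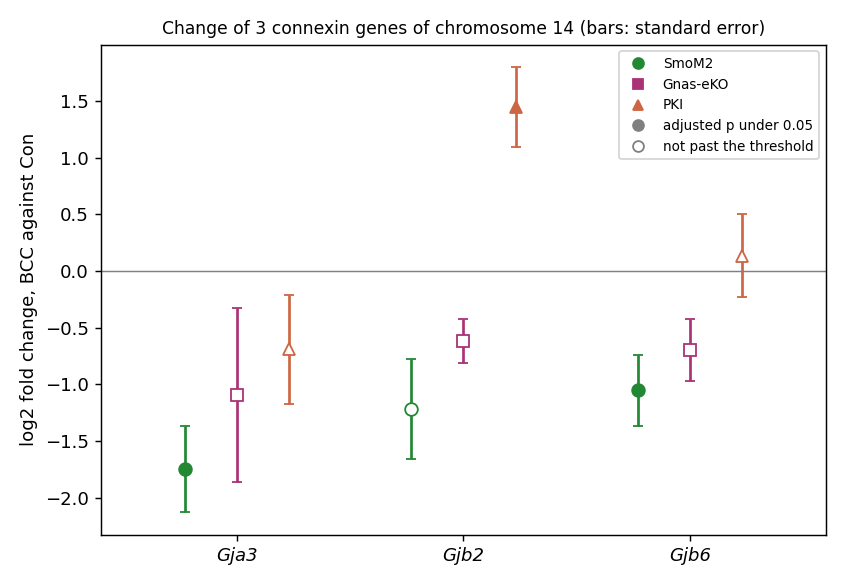
Log2 fold change of BCC against Con (y axis, bars of 1 standard error) for the connexin genes Gja3, Gjb2 and Gjb6 (x axis), which lie near each other on chromosome 14, in chromosome order and by model, with filled symbols for an adjusted p under 0.05. In PKI, Gjb2 is at 1.45 with Gja3 and Gjb6 at −0.69 and 0.13.

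As shares of the summed CPM per kilobase of the 14 connexins, Gja1 stayed within 33.3% to 46.6% in every library. Gjb2 held 25.6% to 41.9% in PKI BCC and 13.4% to 21.8% in PKI Con, and Gjb5 held 2.47% to 4.55% and 6.9% to 10.7%. The sum itself was 516 ± 70 in PKI Con (SD, n = 3) and 769 ± 101 in PKI BCC (SD, n = 4), 647 ± 135 and 416 ± 90.6 in SmoM2, and 581 ± 75.9 and 463 ± 34.7 in Gnas-eKO. These shares use the principal transcripts; with the exons of all transcripts, Gja1 had a mean of 15.5% to 19% over the groups and Gjb2 of 20.5% to 45.5%.

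**Figure D5:**
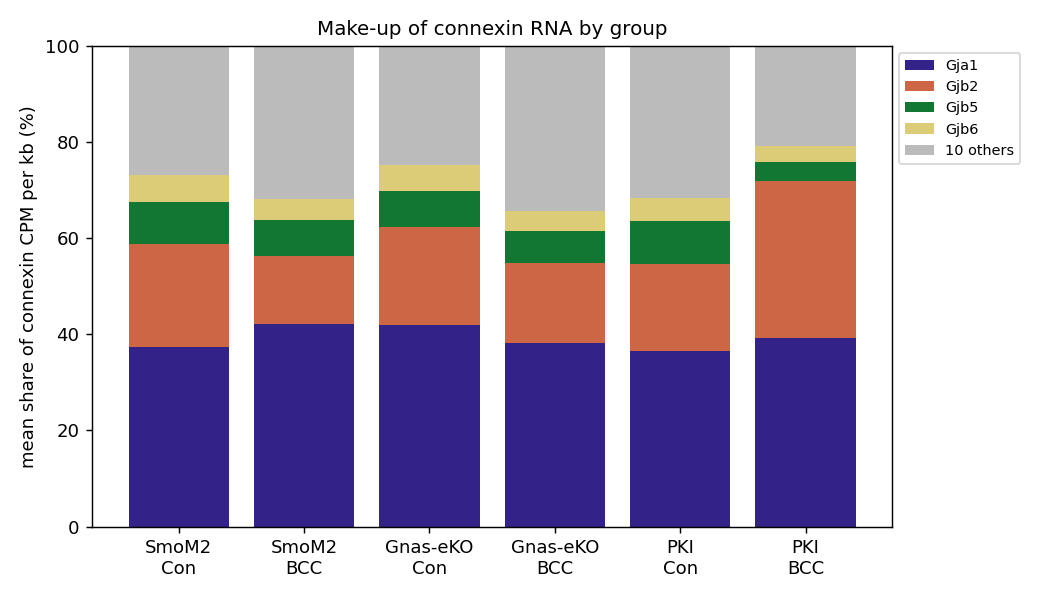
Mean share (y axis, percent) of Gja1, Gjb2, Gjb5, Gjb6 and the 10 other connexins together in the summed CPM per kilobase of principal transcript, stacked, for the 6 groups (x axis). Gjb2 takes 32.7% in PKI BCC against 18.1% in PKI Con, and Gjb5 3.91% against 9.06%.

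Pannexins form single-membrane channels, one of which releases ATP from keratinocytes. Panx1 rose in PKI, with 29.8 to 36.9 CPM in Con and 46.6 to 64.5 CPM in BCC (log2 fold change 0.77, SE 0.12, edgeR adjusted p 0.00177), and its rise was larger than its change in SmoM2 by 0.53 (edgeR adjusted p 0.0365) and than that in Gnas-eKO by 0.68 (edgeR adjusted p 0.0286). Panx3 did not pass, at −0.23, −0.05 and −1.15 on the log2 scale for SmoM2, Gnas-eKO and PKI (edgeR adjusted p 0.657, 0.935 and 0.146).

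Among 14 tested genes whose products bind or regulate Cx43, 3 were called higher and 4 lower in SmoM2, where 29.7% of all genes were called, none in Gnas-eKO (1.63%), and 3 higher and 3 lower in PKI (34.5%), with median log2 fold changes of −0.0394, −0.00088 and −0.0021. Dbn1, an actin-binding drebrin, rose in SmoM2 (log2 fold change 1.83, edgeR adjusted p 0.00202) and PKI (1.92, 0.000718). Ctnnb1, which encodes beta-catenin, rose in both (0.63, edgeR adjusted p 0.00032, and 0.47, 0.000916). Cnst, consortin, which takes part in connexin delivery to the membrane, fell in PKI (−0.60, edgeR adjusted p 0.00327), and Cav1, caveolin, did too (−0.56, edgeR adjusted p 0.0137). Ezr, the membrane-cytoskeleton linker ezrin, fell in SmoM2 (−0.75, edgeR adjusted p 0.000496).

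Marker lists of other cell types and states are given by their called genes, to be read against the share of all genes called (29.7% for SmoM2, 1.63% for Gnas-eKO, 34.5% for PKI). Keratins of wounded epidermis (Krt6a, Krt6b, Krt16 and Krt17) moved with Gja1 and Gjb2 in PKI, where 4 of 4 were called higher and summed to 11000 to 23500 CPM in BCC against 1770 to 1890 CPM in Con. Krt6a rose by 2.98 and Krt16 by 6.29 on the log2 scale (edgeR adjusted p 0.000348 and 0.000141). In SmoM2, 1 of the 4, Krt17, was called higher, and the sums were 6500 to 10200 CPM against 1850 to 3090 CPM, while Gja1, Gjb5 and Gjb6 fell. None of the 4 was called in Gnas-eKO, where the sums were 2710 to 8100 CPM in BCC against 2080 to 2800 CPM in Con. The median log2 fold change of these keratins was 1.71 in Gnas-eKO, 1.4 in SmoM2 and 4.64 in PKI. Krt6a and Krt6b are close copies, so their counts are uncertain. Leukocyte markers also rose in PKI, 6 of 7, from 8.46 to 19.1 CPM in Con up to 40.1 to 68.8 CPM in BCC, while in SmoM2 and Gnas-eKO none of the 6 tested was called. Of 8 hair follicle markers, 7 were called higher in PKI, 4 in SmoM2 and 1, Lgr5, in Gnas-eKO. Those in SmoM2 were Sox9, Lhx2, Lgr5 and Cux1. Estimates of Krt75, Krt25, Krt27 and Krt71 were below Con there (−0.24, −1.5, −1.4 and −1.5 on the log2 scale), and none was called. Krt71 averaged 26 CPM in PKI Con and 600 CPM in PKI BCC, and Sox9 110 and 116 CPM. Of 8 markers of the upper epidermal layers, 6 were called lower in SmoM2 and 4 in PKI, where 1, Krt1, was called higher. Of 8 basal markers, 5 were called lower in SmoM2, where 1, Trp63, was called higher, and 5 in PKI. Of 5 melanocyte markers, 2 were called lower in SmoM2 and 4 in PKI. In Gnas-eKO none of these 3 lists had a called gene. Their median log2 fold changes there were 0.006 for the upper-layer markers, −0.397 for the basal markers and 0.0717 for the melanocyte markers. Fibroblasts also make Gja1. Their markers were called higher for 2 of 6 genes tested in SmoM2, for 3 of 6 in PKI and for 1 of 6, Dcn, in Gnas-eKO. The median log2 fold changes were 1.46, 1.83 and 3.07. The part of these cell types in the connexin values was not tested.

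The genes whose log2 CPM most resembled each member over the 21 libraries, of 11039 compared, were chosen by Pearson's r, which reflects group and batch as well. For Gja1 they were Wdr43 (r 0.902), Ltv1 (0.90) and Cse1l (0.899), and for Gjb2 Slc35f6 (0.942), Slc9a3r1 (0.935) and Bzw1 (0.927). For Gjb5 they were Adam15 (0.966), Tjp3 (0.944) and Eps8l2 (0.94), and for Gjb6 Rab1a (0.90), Cyp4f39 (0.852) and Lypd3 (0.843). With group means removed, r was 0.454 to 0.588 for the genes of Gja1, 0.761 to 0.824 for those of Gjb2, 0.843 to 0.945 for those of Gjb5 and 0.765 to 0.90 for those of Gjb6. Since these genes were chosen for their likeness over the same libraries, their values are descriptions, with no test. Tjp3, which encodes a tight junction scaffold, was at 67.3 ± 10.3 CPM in SmoM2 Con and 31.1 ± 4.5 CPM in SmoM2 BCC, and at 62.2 ± 5.66 CPM in PKI Con and 30.2 ± 5.34 CPM in PKI BCC (SD, n = 3 and 4). Bzw1 was at 437 ± 44.6 and 338 ± 26.3 CPM in SmoM2, and at 361 ± 24.3 and 498 ± 27.4 CPM in PKI.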

How the data were processed

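RNA from tail keratinocytes was sequenced after a stranded mRNA ligation preparation, per the labels' protocols. The submitters' processing notes name bcl2fastq 2.20, cutadapt 1.18, STAR 2.7.0f, Partek and mm10, with no role or order; the counting tool, and whether it used the strand, are not given in the sources used here. The authors deposited estimated counts per gene, of which 33.1% of values are not whole; Gja1 was not whole in 19 libraries and Gjb6 in 16, and how shared reads were divided is not stated. No gene has under 10 counts over the 21 libraries. A second deposited table holds the authors' normalized signal, each count times a factor per library plus 0.001, used as an alternative.

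Counts were rounded and tested in edgeR 4.0.16 (R 4.3.3): filterByExpr, TMM, robust quasi-likelihood test, BCC against Con in the 7 libraries of a model, Benjamini-Hochberg adjustment over all genes tested, called under 0.05. Differences between models are interaction contrasts. SE is the absolute log2 fold change over the square root of F. CPM use one TMM scale over the 21 libraries. The procedure was run on simulated data with the same spread between libraries set for every gene. That run does not speak for genes that vary more, such as Gjb2, and its outcome is not given here. The floor of 3 counts is at most 0.189 CPM, and the members had 554 or more counts in every library; this covers counting error only. Libraries of a group differed by more than counting noise (lowest chi-square over its degrees of freedom 8.33).

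Alternatives were DESeq2 1.42.0 (size factors, Wald test), no filter, a replicate block, a joint fit of all 21 libraries, limma 3.58.1 on log2 of the normalized signal plus 1, and leaving out each library. Exon lengths and neighbours are from GENCODE M21 (GRCm38), promoters from RefSeq (GRCm38.p6), where all 4 members matched. Deposited ends lie 1 base past the annotated ends, which are the ones given. Named genes were the members, other connexins and pannexins that passed the filter, the 6 called Cx43 partners with the largest change, and the 3 genes most like each member whose log2 CPM averaged 2 or more. Members and lists were chosen with earlier results of these data known. Some genes that this rule names are not reported here.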

Additional observations from a re-analysis of the deposited data

Results flagged for a closer look

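The BCC effect on Gja1 was higher in PKI than in SmoM2 by 1.12 and than in Gnas-eKO by 1.14 on the log2 scale, and that on Gjb2 by 2.67 and 2.07. Each is listed because the difference between 2 models passed its own edgeR interaction test (adjusted p 0.000538, 0.00546, 0.00898 and 0.00926). All 4 PKI BCC libraries lay above PKI Con for both genes, a separation whose share over all genes is not given here. Each model is also a batch and a day after induction, so these cannot be told apart. No library of the 4 in a BCC group lay far enough from the others in Gja1, Gjb2, Gjb5 or Gjb6 to be listed.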

How the results depend on the processing

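Over the 24 member results (4 genes, 3 models and 3 differences between models), 136 of 144 values from alternatives that kept all libraries had the same direction and side of the threshold, 7 newly passed, 1 no longer passed and 0 reversed. With 1 library left out, 228 of 252 did, 13 no longer passed, 2 newly passed and 9 reversed, none of the 9 from a value past the threshold. Newly passing were Gjb2 in SmoM2 with the DESeq2 Wald test (−1.23), the joint fit (−1.23) and limma (−1.20), Gjb2 in Gnas-eKO with the DESeq2 Wald test (−0.62) and Gja1 in Gnas-eKO in the joint fit (−0.46). Gjb6 in SmoM2 no longer passed without a filter (−1.05). With the replicate block, Gjb2 in SmoM2 (−1.26, edgeR adjusted p 0.0104) and Gjb6 for PKI minus SmoM2 (1.25, 0.00158) passed, the other member calls were as without it, and genes called were 135 in Gnas-eKO and 925 for PKI minus Gnas-eKO, but same-numbered Con and BCC libraries had deviations correlated between −0.111 and 0.242, so the numbers were not taken to pair them.

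Genes called in Gnas-eKO were 267, 1535 with the DESeq2 Wald test and 2644 in the joint fit, and 0 to 1910 with 1 library left out. Those for Gnas-eKO minus SmoM2 were 30, 212 with the DESeq2 Wald test and 66 in the joint fit, and 14 to 79 with 1 library left out. Those for PKI minus Gnas-eKO were 1564, 2389 with the DESeq2 Wald test, and 673 to 2512 with 1 library left out. The causes were not tested.

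With 1 library left out, values in SmoM2 ranged from −0.54 to −0.36 for Gja1, −1.52 to −0.80 for Gjb2 and −1.26 to −0.62 for Gjb6, in Gnas-eKO from −0.65 to −0.38 for Gjb5, and in PKI from 1.20 to 1.66 for Gjb2, −0.75 to −0.52 for Gjb5 and −0.16 to 0.39 for Gjb6. For Gnas-eKO minus SmoM2 they ranged from −0.11 to 0.13 for Gja1, 0.19 to 0.91 for Gjb2, 0.20 to 0.48 for Gjb5 and −0.069 to 0.57 for Gjb6, for PKI minus SmoM2 from 0.12 to 0.35 for Gjb5 and 0.75 to 1.45 for Gjb6, and for PKI minus Gnas-eKO from −0.27 to 0.026 for Gjb5 and 0.55 to 1.09 for Gjb6. Per-kilobase levels with all exons were added after the data were seen and turn the order of Gja1 and Gjb2. The members had 554 or more counts in every library, and each comparison rests on 3 Con and 4 BCC libraries.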
